A study of Mus musculus with 18 samples.

Results

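Ribosome biogenesis was followed through 33 genes: Myc and 32 genes whose products transcribe, modify, cut and assemble ribosomal RNA in the nucleolus. Members were chosen by name, as a module of Myc and nucleolar factors, with earlier results of these data known. They were found by gene identifier among the 27179 genes of the deposited count table. All 33 had a row and all 33 passed the filter on low counts, which 16466 genes passed. The RNA came from mammary epithelium of 14-week-old female mice, sorted into basal cells, luminal progenitors (LP) and mature luminal cells (ML). The knockout (KO) mice carried MMTV-cre(T/+) together with the deleted alleles Brca2(delta/delta) and Trp53(delta/+). The MMTV promoter drives Cre in mammary epithelium. The sample titles call these mice a knockdown, while the genotype label calls them a Brca2 knockout; KO is used below. The controls were wildtype (WT). The strain label reads MMTVcre Brca2(fl/fl) Trp53(fl/+) for all 18 libraries, WT included, so whether the controls carry the transgene or the floxed alleles is not given. Each of 3 mice per genotype gave 1 library per population, which made 6 groups of 3 libraries.

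Ribosome production starts with RNA polymerase I, which transcribes ribosomal DNA into a long precursor RNA. Small nucleolar ribonucleoproteins (snoRNPs) methylate and pseudouridylate this precursor, and assembly factors fold, cut and trim it into the small and the large subunit. Myc is a transcription factor that, with its partner Max, binds E-box DNA and is known to raise transcription of genes of all these steps in growing cells.

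Total counts per library were 5.973 M to 39.19 M, of which the 33 genes took 0.284% to 1.14%, and no member had fewer than 42 counts in any library. LP depths did not overlap between genotypes (9.285 M to 16.17 M in WT, 22.42 M to 32.72 M in KO). The sorts were checked on a defining gene each. Krt5, a basal keratin, stood at 1839 to 1890.3 CPM (library-scaled read counts) in WT basal cells and at 1.92 to 3.48 in WT ML. Kit, a receptor of luminal progenitors, stood at 492 to 852 CPM in WT LP and at 10.8 to 13.3 in WT ML, and the prolactin receptor gene Prlr at 4777 to 5555 CPM in WT ML and 415 to 569.6 in WT LP. The KO ML libraries stood apart from WT ML in these genes: Krt5 was at 141 to 184 CPM, Kit at 127 to 257 CPM and Prlr at 461 to 2523 CPM. Trp53 was lower in KO in each population (log2 fold changes of -1.72 for basal cells, -3.60 for LP and -1.58 for ML; edgeR adjusted p = 0.0034, 5.3e-06 and 0.0023). In LP it stood at 67.1 to 150.2 CPM in WT and 7.25 to 9.04 in KO, a deeper fall than the loss of 1 of 2 equally active alleles alone would give, and the cause was not tested. Brca2 counts over the whole gene did not pass in any population (edgeR adjusted p = 0.68, 0.51 and 0.84), and a count over the whole gene does not check the deletion of some exons. Levels below are CPM, scaled by TMM to make libraries comparable, and differences are log2 fold changes with standard error (SE). Adjusted p-values come from edgeR's quasi-likelihood test with Benjamini-Hochberg adjustment over all 16466 genes, with a threshold of 0.05. A sorted bulk sample cannot tell fewer cells of a type from less RNA per cell.

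In WT mice the module formed a slope from basal cells through LP to ML. The summed level of the 33 genes was 13561, 10931 and 8858 CPM in the basal libraries of mice 1, 2 and 3, 7130, 5609 and 5706 CPM in LP, and 3092, 3349 and 2472 CPM in ML. The 3 populations did not overlap in this sum. Group means followed the order basal, LP, ML in 30 of 33 genes. Rrp12 and Nhp2 had ML above LP, and Nop10 was highest in ML. The sum was not carried by 1 gene alone: Ncl made up 25.9% to 35.3% of it, and without Ncl the WT sums were 6046 to 9832, 3693 to 4898 and 1778 to 2482 CPM.

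**Figure D1:**
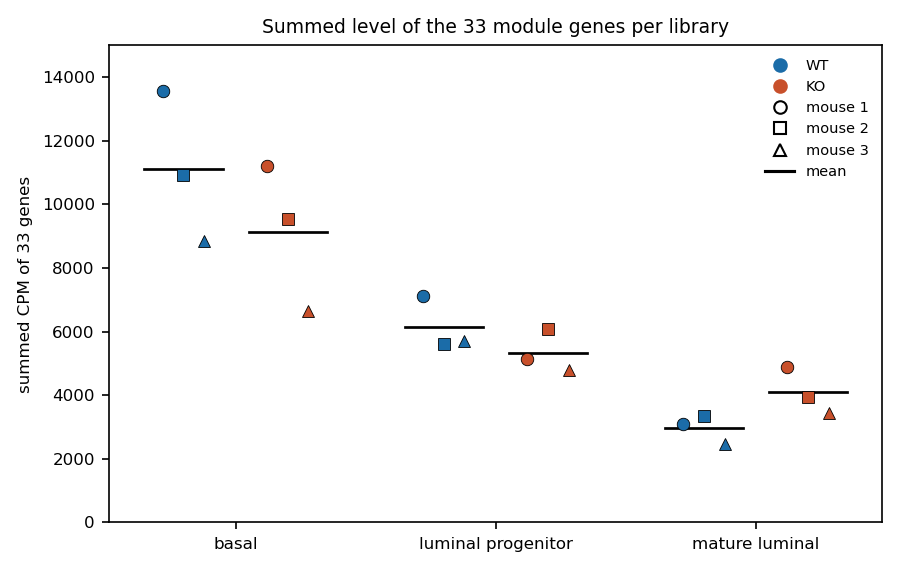
Summed CPM of the 33 genes in each of 18 libraries, by population and genotype; markers give the mouse and bars the mean of 3. WT sums run from 8858 to 13561 in basal cells down to 2472 to 3349 in mature luminal cells, and the KO mature luminal libraries, at 3428 to 4885, lie above the WT ones.

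Against WT basal cells, 30 of 33 members fell in WT ML (28.9% of all genes tested fell) and 0 rose (25.7% rose). The members' median log2 fold change was -1.82, beside -0.07 over all genes. In WT LP, 18 members fell (19.8% of all genes fell) and 0 rose (17.3% rose), and 14 members had all LP libraries below all basal libraries (23.7% of all genes did), with a median of -0.80 beside 0 over all genes. All 33 members had a negative value in LP against basal cells and 32 of 33 in ML. WT LP against WT ML gave 19 members higher (17.6% of all genes were higher) and 0 lower (16.1% lower), with a median of 0.85 beside 0.01. Upper quartile scaling moved the median of all genes in ML against basal cells by 0.13, and the members' median there was then -1.68. Without WT mouse 1, 29 values were negative in LP against basal cells (median -0.59) and 31 in ML (median -1.45), and 9 members fell in LP. Without WT mouse 2, 10 fell in LP, and without WT mouse 3, 12 members were higher in LP than in ML.

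**Figure D2:**
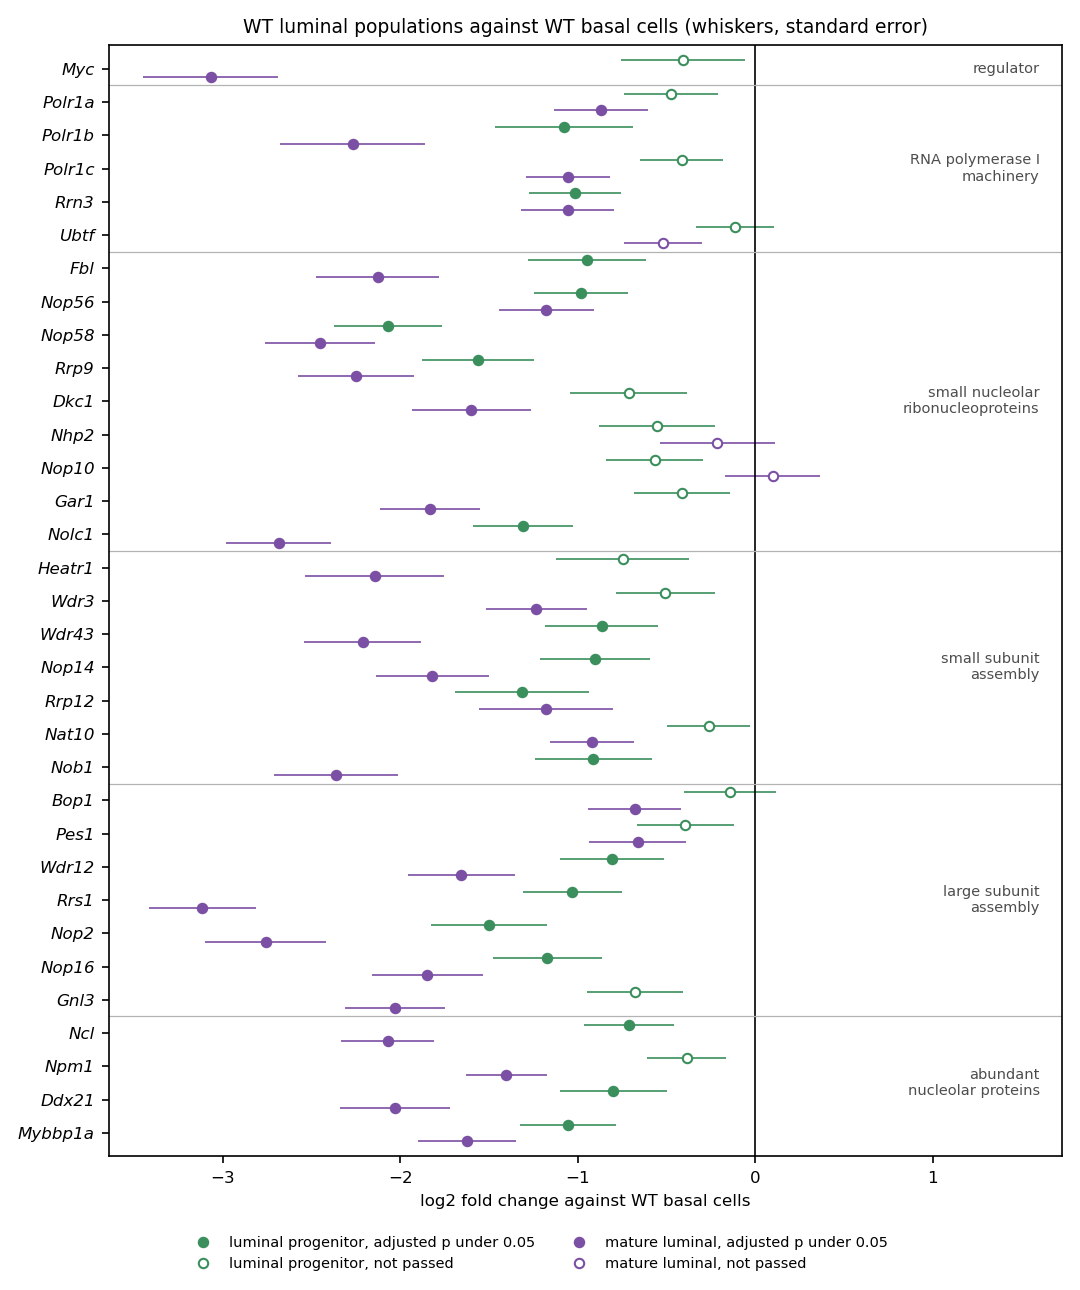
Log2 fold change of each of the 33 genes in WT luminal progenitors (green) and WT mature luminal cells (purple) against WT basal cells, grouped by role; whiskers are standard errors and filled points have an adjusted p under 0.05. The 30 filled purple points lie between -3.11 for Rrs1 and -0.66 for Pes1, and most green points lie between them and 0.

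Myc fell between LP and ML, and its difference between basal cells and LP did not pass. Its level was 524, 678 and 565 CPM in the WT basal libraries, 631, 455 and 248 in LP, and 88.5, 80.9 and 42.4 in ML. Basal and LP libraries overlapped, and all ML libraries lay below both. The log2 fold change was -0.41 (SE 0.35, edgeR adjusted p = 0.39) in LP and -3.07 (SE 0.38, adjusted p = 1.3e-06) in ML against basal cells, and 2.66 (SE 0.37, adjusted p = 2.0e-05) for LP against ML. Myc (gene 17869) lies on chromosome 15 at 61985341 to 61990361 in GRCm38.p6.

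The RNA polymerase I group holds the catalytic subunits Polr1a and Polr1b, the shared subunit Polr1c, the initiation factor Rrn3 and the ribosomal DNA architectural factor Ubtf. In WT ML 4 of the 5 fell. Polr1b moved most: it stood at 179, 55.3 and 45.4 CPM in basal cells, 43.4, 34.2 and 54.5 in LP, and 21.1, 20.3 and 17.1 in ML. Mouse 1 was far above the other mice in basal cells, and all ML libraries lay below all basal libraries (log2 fold change -2.27, SE 0.41, adjusted p = 1.1e-04). Without WT mouse 1 the log2 fold change of Polr1b in LP against basal cells was -0.18 (adjusted p = 0.72), where with all mice it was -1.08 (adjusted p = 0.035). Rrn3 took its step early: 164, 108 and 94.5 CPM in basal cells, 76.8, 54.5 and 50.3 in LP, and 54.0, 63.6 and 58.5 in ML. It fell by 1.02 (SE 0.26, adjusted p = 0.0042) from basal cells to LP, and LP and ML overlapped (log2 difference 0.04, adjusted p = 0.93). Ubtf, at 154 to 283 CPM in basal cells and 135 to 169 in ML, did not pass in any WT comparison of the main fit. In a fit with the mouse as a blocking term it fell in ML against basal cells (log2 fold change -0.49, edgeR adjusted p = 0.038).

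The snoRNP group comprises the box C/D proteins Fbl (the methyltransferase fibrillarin), Nop56 and Nop58, Rrp9 of the U3 snoRNP, the box H/ACA proteins Dkc1 (the pseudouridine synthase dyskerin), Nhp2, Nop10 and Gar1, and the assembly chaperone Nolc1. In WT ML 7 of 9 fell and 5 of 9 fell in LP. Nop58 had the steepest early step of all 33 genes. It stood at 1131, 1543 and 1224 CPM in basal cells, 369, 315 and 245 in LP, and 245, 326 and 143 in ML. All basal libraries lay above all luminal ones, while LP and ML overlapped. The log2 fold change was -2.07 (SE 0.31, adjusted p = 1.8e-05) in LP and -2.45 (SE 0.31, adjusted p = 1.7e-06) in ML against basal cells, with 0.38 (SE 0.29, adjusted p = 0.34) between LP and ML. Nop56, its partner in the same particle, stood at 196 to 389, 140.3 to 148 and 88.7 to 169 CPM and had the same shape (LP -0.98, ML -1.18).

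Nolc1 fell at each step. It stood at 649.95, 389.97 and 316 CPM in WT basal cells, 211, 148 and 188 in LP, and 65.4, 83.6 and 62.0 in ML, and no 2 of these groups overlapped. The log2 fold changes against basal cells were -1.31 in LP (SE 0.28, adjusted p = 1.0e-03) and -2.68 in ML (SE 0.30, adjusted p = 2.8e-07). Gar1, in contrast, stood at 73.8, 50.1 and 45.8 CPM in basal cells and 39.8, 38.1 and 49.3 in LP, which overlapped, and at 13.8, 22.0 and 11.9 in ML (-1.83, SE 0.28, adjusted p = 1.9e-05). Dkc1 had a similar pair of values (-0.71 in LP, not passed, and -1.60 in ML, adjusted p = 5.1e-04).

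The other H/ACA subunits departed from the slope. Nop10, a small protein of the H/ACA core, stood at 25.0, 19.3 and 14.4 CPM in WT basal cells, 13.1, 11.3 and 15.2 in LP, and 22.8, 18.4 and 22.0 in ML. All LP libraries lay below all ML libraries, and basal cells overlapped both. Its log2 fold change was 0.10 (SE 0.27, adjusted p = 0.78) in ML against basal cells and -0.66 (SE 0.27, adjusted p = 0.067) in LP against ML. Nhp2 stood at 36.2 to 99.8, 37.0 to 50.1 and 47.2 to 63.7 CPM in basal cells, LP and ML and passed in no WT comparison. Dkc1, Gar1, Nhp2 and Nop10 form a single complex, so within it 2 transcripts fell in ML and 2 did not pass. The difference between these pairs was not tested.

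For small subunit assembly, Heatr1, Wdr43, Wdr3 and Nop14 belong to the processome particle and Rrp12 to subunit export. Nat10 acetylates and Nob1 cleaves the 18S rRNA. All 7 fell in WT ML and 4 fell in LP. Nob1 had the largest value, -2.36 (SE 0.35, adjusted p = 1.2e-05), with 155, 84.9 and 58.2 CPM in basal cells, 61.3, 42.8 and 54.5 in LP, and 19.8, 18.2 and 20.1 in ML. The ML libraries were close together and below every other WT library. Wdr43 stood at 249 to 618 CPM in basal cells and 67.1 to 108 in ML (-2.21), and Heatr1 at 126 to 351 and 40.2 to 61.3 (-2.14). Rrp12 was the exception in shape: LP (56.7 to 102 CPM) and ML (48.7 to 99.5 CPM) overlapped, and both fell against basal cells (-1.31 and -1.18). Nat10 had the smallest value of the group in ML, -0.92 (adjusted p = 0.0028; without WT mouse 1, -0.56 and adjusted p = 0.081).

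For the large subunit, Bop1, Pes1 and Wdr12 form the PeBoW complex of pre-rRNA processing, Rrs1 helps to load the 5S ribonucleoprotein, Nop2 methylates the large rRNA, and Nop16 and Gnl3 (nucleostemin) are nucleolar assembly factors. All 7 fell in WT ML and 4 fell in LP. Rrs1 and Myc had the lowest values of the module in ML, -3.11 and -3.07, within an SE of each other. Rrs1 stood at 276, 164 and 147 CPM in basal cells, 119, 74.5 and 93.9 in LP, and 21.1, 26.6 and 20.1 in ML, and no 2 of these groups overlapped. The log2 fold change was -1.03 in LP (SE 0.28, adjusted p = 0.0062) and -3.11 in ML (SE 0.30, adjusted p = 5.0e-08). Nop2 stood at 393, 184 and 140.4 CPM in basal cells, 98.9, 62.7 and 91.9 in LP, and 32.5, 39.5 and 34.0 in ML, again with no overlap (-1.5 and -2.76). Within the PeBoW complex the values differed in size: Wdr12 fell by 1.65 (SE 0.30, adjusted p = 1.3e-04) in ML, Bop1 by 0.68 (SE 0.26, adjusted p = 0.035) and Pes1 by 0.66 (SE 0.27, adjusted p = 0.046). The call of Pes1 was lost in 8 of 14 alternative settings (adjusted p up to 0.39) and that of Bop1 in 6 of 14. Both were lost with upper quartile scaling, on thinned libraries, in a fit of the groups alone, without KO mouse 1, without WT mouse 1 (for Bop1 -0.14, adjusted p = 0.67) and with the mouse as a block, and Pes1 also without KO mouse 2 or WT mouse 2.

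The group of abundant nucleolar proteins holds nucleolin (Ncl), nucleophosmin (Npm1), the RNA helicase Ddx21 and the Myb-binding protein Mybbp1a, and all 4 fell in WT ML. Ncl stood at 3729, 3416 and 2812 CPM in basal cells, 2232, 1842 and 2013 in LP, and 809, 868 and 694 in ML. No libraries overlapped between populations. The log2 fold change was -0.71 in LP (SE 0.25, edgeR adjusted p = 0.033) and -2.07 in ML (SE 0.26, adjusted p = 1.8e-06). The LP call of Ncl was lost in 5 of 14 alternative settings (edgeR adjusted p up to 0.20), among them each fit without a WT mouse. Its ML call was lost in 0 of 14. Npm1 stood at 368 to 530.3, 345 to 363 and 154 to 188 CPM in basal cells, LP and ML, with no overlap (LP -0.39, not passed; ML -1.40, adjusted p = 3.4e-05). Per kilobase of the deposited gene length, Nop58 led in WT basal cells at 657 ± 109 RPKM (SD, n = 3), followed by Ncl at 402 and Npm1 at 270 RPKM. In WT ML the leading gene was again Nop58 at 120 RPKM, followed by Npm1 at 102 and Ncl at 95.7 RPKM. This order depends on the deposited lengths, 8257 bases for Ncl and 1976 for Nop58. Without division by length Ncl stood above Nop58, at means of 3319 and 1299 CPM in WT basal cells and 790 and 238 in WT ML.

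The step that held the larger difference varied among genes. In 21 of 33 genes the drop from LP to ML was larger than that from basal cells to LP, and in 12 it was smaller. Nop56, Nop58, Rrp9, Nhp2, Nop10, Rrn3, Polr1a, Rrp12, Nop2, Nop16, Pes1 and Mybbp1a were the 12, and Myc and 6 of 7 small subunit factors were among the 21. These are counts of fitted differences and were not tested.

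The promoter windows of the members were searched for the Myc and Max E-box, CACGTG, which reads the same on both strands. RefSeq windows in GRCm38.p6 ran from 250 bases before to 50 bases after a start base, from which the positions below count. They were matched for 27 of 33 members, and Bop1, Fbl, Myc, Npm1, Rrp12 and Rrs1 had none. Among the genes printed below, the start base lies inside the annotated gene in Wdr43 and Gar1. Those genes begin at 71616178 and, on the minus strand, at 129831407. The E-box was present in 5 of 27 members (18.5%), beside 11% of 12237 tested genes with a window. Rrn3 held it at 215 and at 48 bases before the start, and Nop2 at 60 bases before it. In Pes1 and Wdr43 it began 2 and 17 bases after the start, and in Mybbp1a 40 bases after it. Nolc1 and Gar1, with -2.68 and -1.83 in WT ML against basal cells, had no such letters in their windows. The sequences below are shown because they place the motif, in capitals, in genes of this slope and give 2 members without it. They read 5′ to 3′ on the strand of the gene.
Nop2, chr6:125131783-125131868, plus strand: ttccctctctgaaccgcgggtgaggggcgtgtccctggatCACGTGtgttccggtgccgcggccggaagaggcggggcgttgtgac
Rrn3 distal, chr16:13780449-13780529, plus strand: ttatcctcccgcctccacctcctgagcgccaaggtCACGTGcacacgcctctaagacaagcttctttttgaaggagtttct
Rrn3 proximal, chr16:13780611-13780696, plus strand: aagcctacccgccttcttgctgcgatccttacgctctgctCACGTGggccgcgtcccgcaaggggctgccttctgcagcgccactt
Pes1 at its start, chr11:3963967-3963992, plus strand: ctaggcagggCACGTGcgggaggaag
Wdr43 at its start, chr17:71616222-71616247, plus strand: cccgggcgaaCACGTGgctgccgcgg
Nolc1, from 120 to 21 bases before the start, chr19:46075727-46075826, plus strand: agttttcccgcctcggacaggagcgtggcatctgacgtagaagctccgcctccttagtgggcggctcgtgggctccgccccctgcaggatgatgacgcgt
Gar1, from 120 to 21 bases before the start, chr3:129831417-129831516, minus strand: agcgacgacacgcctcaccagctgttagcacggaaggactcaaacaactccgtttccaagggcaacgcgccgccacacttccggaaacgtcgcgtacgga
Among the 5 members with the motif the log2 fold change of WT ML against basal cells ran from -2.76 for Nop2 to -0.66 for Pes1. Whether the motif goes with the slope was not tested. Median GC content was 59.7% over the 34 member windows and 60.0% over the windows of all tested genes.

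Other genes of the pathway, taken from lists of known factors, had negative medians in WT ML that were nearer to 0 than the module's. Module and lists were both chosen with earlier results of these data known, and the difference of their medians was not tested. Of 45 other small subunit assembly genes, 28 fell and 0 rose in WT ML against basal cells, with a median log2 fold change of -0.95. Mphosph10, a processome subunit, stood at 134 ± 55.5 CPM in basal cells and 26.5 ± 2.60 in ML (-2.33, SE 0.31, adjusted p = 3.4e-06). Of 51 other large subunit genes, 37 fell and 2 rose (median -1.08), among them Nip7, at 122 ± 38.0 and 24.2 ± 2.29 CPM (-2.33, SE 0.27, adjusted p = 6.7e-07). Among 11 other RNA polymerase I genes 7 fell and 1 rose. The gene that rose was Ttf1, the transcription terminator of ribosomal DNA, at 11.4 ± 3.07 CPM in basal cells and 34.8 ± 7.34 in ML (1.63, SE 0.28, adjusted p = 6.0e-05; SD, n = 3 throughout). Of 13 RNA exosome genes 6 fell and 1 rose, and of 79 cytosolic ribosomal protein genes 34 fell and 0 rose (median -0.67).

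Within the Myc network the partners moved in different directions in WT ML. Max, the obligate partner, fell from 119 ± 33.6 to 65.4 ± 3.14 CPM (-0.87, SE 0.22, adjusted p = 0.0022), and the related factor Mlxip from 312 ± 50.9 to 102 ± 7.15 CPM (-1.61, SE 0.26, adjusted p = 3.5e-05). Mycl, a paralog of Myc, rose from 4.44 ± 1.31 to 54.2 ± 43.7 CPM (3.59, SE 0.56, adjusted p = 2.5e-05), with a wide spread over the ML mice. Of 30 other Myc target genes 18 fell and 2 rose (median -0.86). Odc1, the rate-limiting enzyme of polyamine synthesis, fell from 789 ± 221 CPM in basal cells to 137 ± 30.2 in ML (-2.52) and to 116 ± 19.9 in LP (-2.77, SE 0.34, adjusted p = 1.6e-06).

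Of 25 cell division genes, 16 rose and 1 fell in WT LP against basal cells, where no module gene rose. Mki67, a marker of cycling cells, stood at 9.51 to 12.4 CPM in WT basal cells, 33.3 to 103 in LP and 7.75 to 18.5 in ML. Immediate early genes, which respond to stress and cell handling and among which Myc is often counted, were higher in LP than in ML for 13 of 19 and lower for 0. Their summed level was 26621, 61305 and 44071 CPM in WT LP of mice 1, 2 and 3, where Myc stood at 631, 455 and 248. The sum was 9556 to 26885 CPM in WT basal cells and 17566 to 19393 in WT ML. The part of these genes in the Myc difference was not tested.

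**Figure D3:**
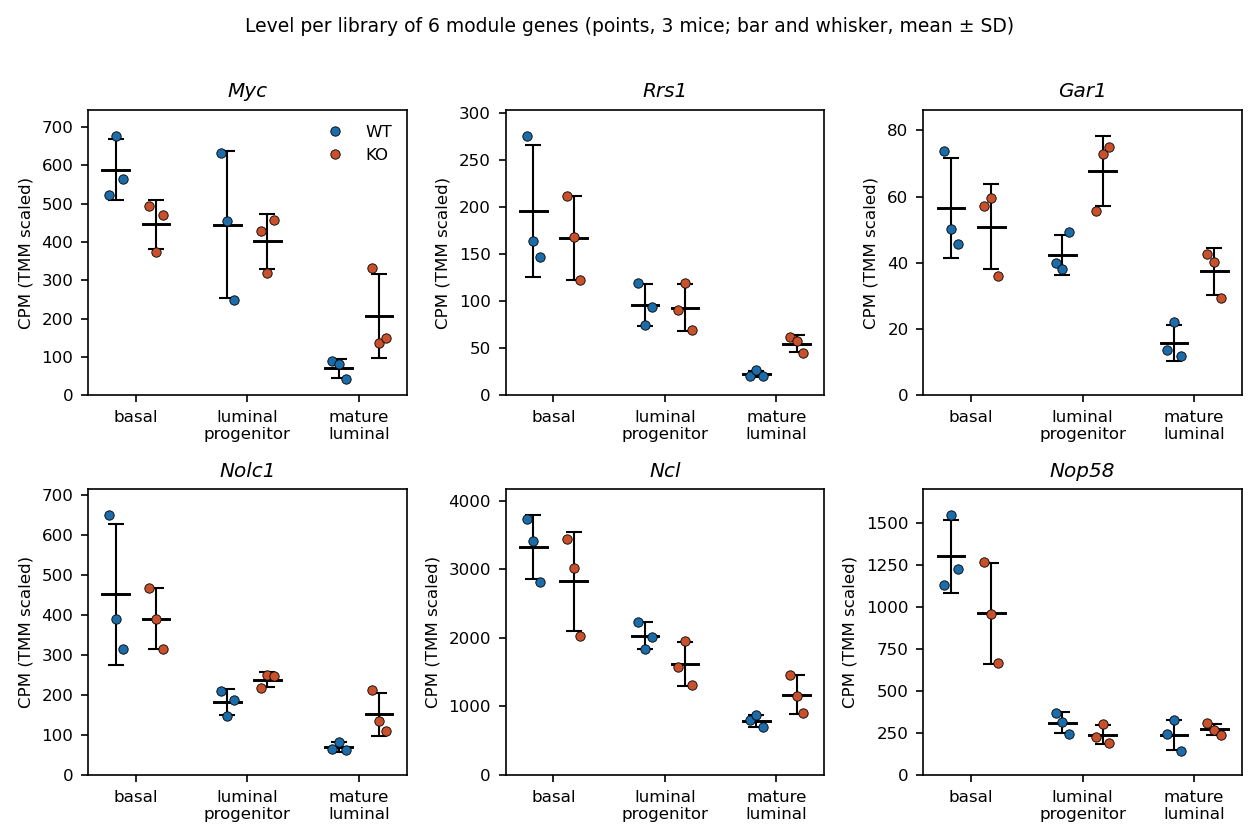
CPM of Myc, Rrs1, Gar1, Nolc1, Ncl and Nop58 in each library; points are mice, bars and whiskers the mean and SD of 3. In mature luminal cells the KO points of Myc, Rrs1, Gar1 and Nolc1 lie above all WT points, while in basal cells WT and KO points overlap for all but Myc.

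In KO mice LP and ML lay closer together. The summed level was 11209, 9551 and 6642 CPM in the basal libraries of KO mice 1, 2 and 3, 5148, 6077 and 4780 CPM in LP, and 4885, 3953 and 3428 CPM in ML. Across mice LP and ML now overlapped in this sum, while within each of the 3 KO mice LP lay above ML, and basal libraries still lay above both. Group means kept the order basal, LP, ML in 19 of 33 genes, against 30 in WT. LP was the highest population for 9 genes in KO and for 0 in WT. KO ML against KO basal cells gave 20 members lower (20.4% of all genes were lower) and 0 higher (18.1% higher, 38.5% in either direction), with a median of -0.99 beside 0.01 over all genes. KO LP against KO basal cells gave 15 lower (23.6% of all genes) and 1 higher (21.4%), Nop10, with a median of -0.57. Between KO LP and KO ML 2 members, Polr1c and Gar1, were higher in LP (5.33% of all genes were higher) and 0 lower (10.5%), with a median of 0.40 beside 0.03. With the mouse as a block 7 members were higher in KO LP than in KO ML: these 2, Myc, Nolc1, Nob1, Rrs1 and Nop16. No member passed on thinned libraries, in a fit of the 2 groups alone, or without KO mouse 2 or 3. Without KO mouse 1, 2 members were lower in KO LP than in KO basal cells, and without KO mouse 2, 9 were lower and 1 was higher. In KO ML 13 and 11 were lower than in KO basal cells without mouse 1 and without mouse 2. The call of Nop10 in KO LP was lost without KO mouse 1, KO mouse 3 or WT mouse 2 and with RLE scaling, without the filter, on thinned libraries and in a fit of the 2 groups alone.

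In ML the genotype difference of the members was upward. Against WT ML, 4 of 33 members rose in KO ML (11.8% of all genes rose) and 0 fell (3.5% fell). The members' median log2 fold change was 0.46, beside 0.02 over all genes, and 30 of 33 values were positive. In 16 members all KO libraries lay above all WT libraries, beside 21.6% of all genes tested, and in 0 members all lay below. The share of members called was near that of all genes, and 11 of 33 members had an unadjusted p under 0.05, beside 4837 of 16466 genes. Without KO mouse 1 the members' median was 0.28, with 31 values positive.

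Myc stood at 88.5, 80.9 and 42.4 CPM in WT ML and at 333, 136 and 150.2 CPM in KO ML. All KO libraries lay above all WT libraries, and mouse 1 was far above the other mice. The log2 fold change was 1.55 (SE 0.36, adjusted p = 0.0053), a 2.93-fold higher level. Without KO mouse 1 it was 1.03 (adjusted p = 0.082). Rrs1 stood at 21.1, 26.6 and 20.1 CPM in WT ML and 62.3, 57.6 and 44.8 in KO ML (1.28, SE 0.29, adjusted p = 0.0040), and Gar1 at 13.8, 22.0 and 11.9 and at 42.6, 40.4 and 29.3 (1.24, SE 0.28, adjusted p = 0.0041). In both genes the KO mice lay close together and apart from WT, and both calls held in all 14 alternative settings. Nolc1 stood at 65.4, 83.6 and 62.0 CPM in WT ML and at 212, 135 and 109 in KO ML (1.11, SE 0.28, adjusted p = 0.011; without KO mouse 1, 0.80, adjusted p = 0.10). The call count was 2 without KO mouse 1, 7 without KO mouse 3 and 9 in a fit of the 2 ML groups alone, where Dkc1, Heatr1, Wdr3, Wdr43 and Nop2 passed too.

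The members that did not pass in ML ranged from -0.09 for Ubtf to 0.93 for Nop2. Nop2 stood at 32.5, 39.5 and 34.0 CPM in WT ML and 86.2, 64.1 and 52.4 in KO ML, with no overlap (SE 0.33, adjusted p = 0.059). Nob1 (0.79) and Wdr3 (0.80) had no overlap of the genotypes either and did not pass. Ncl stood at 809, 868 and 694 CPM in WT ML and 1462, 1149.9 and 899 in KO ML (0.57). By role the medians were 0.72 for small subunit assembly, 0.54 for large subunit assembly, 0.52 for snoRNPs, 0.34 for the abundant nucleolar proteins and 0.30 for RNA polymerase I, whose 5 members all missed the threshold. KO mouse 1 was the highest of the 3 KO ML libraries in 23 of 33 members and KO mouse 3 the lowest in 23; the library of mouse 1 was also the shallowest of the 3, at 8.76 M counts.

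**Figure D4:**
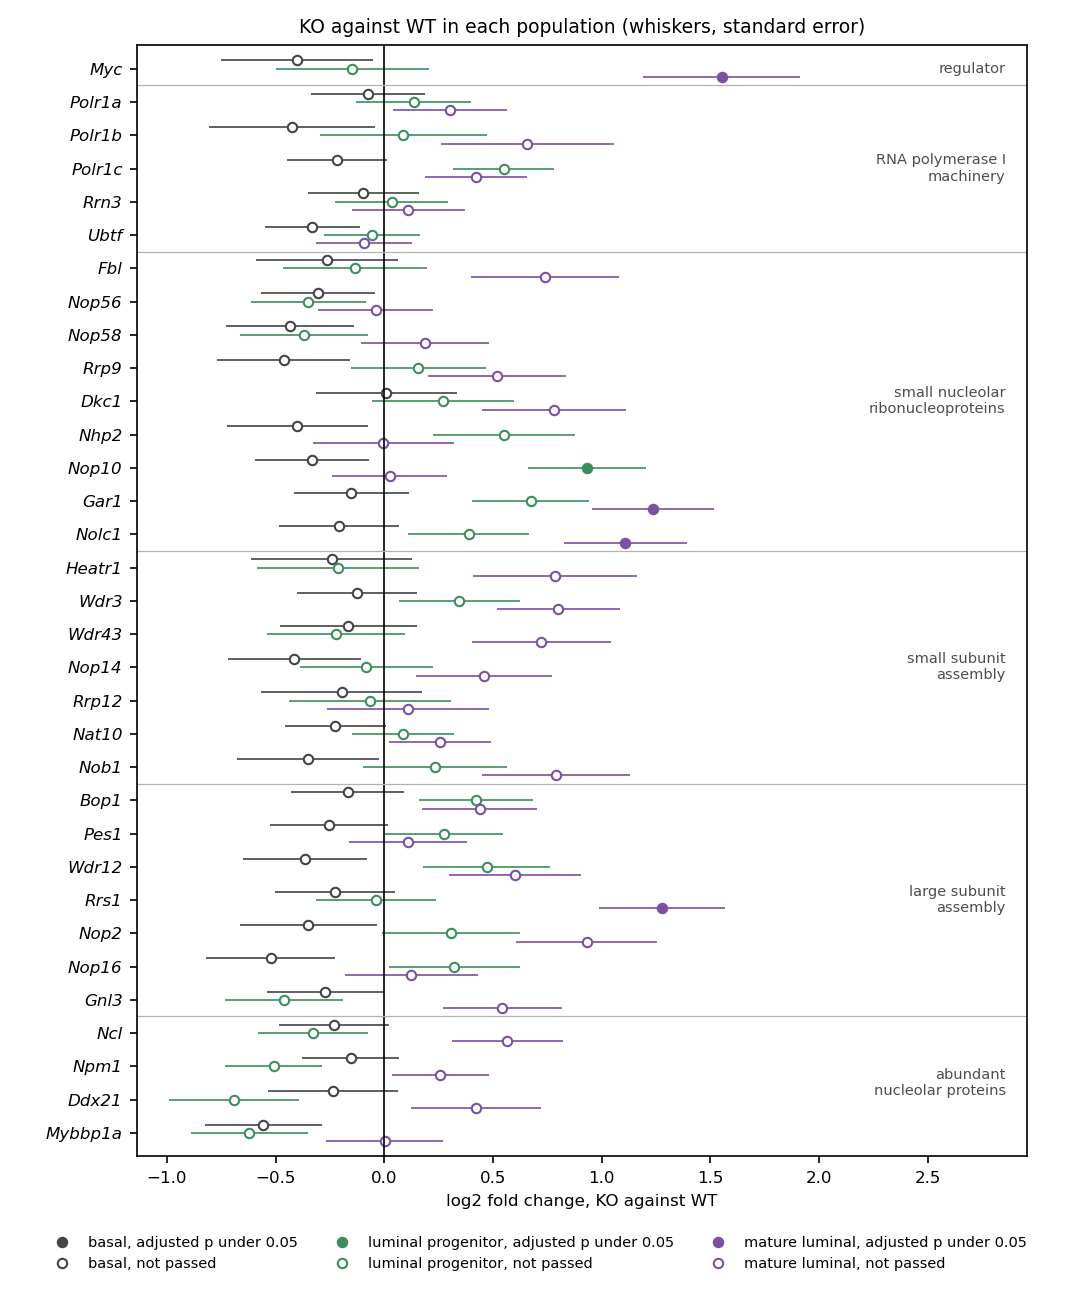
Log2 fold change, KO against WT, of each of the 33 genes in basal cells (dark grey), luminal progenitors (green) and mature luminal cells (purple), grouped by role; whiskers are standard errors and filled points have an adjusted p under 0.05. The filled points are Myc, Gar1, Nolc1 and Rrs1 in mature luminal cells and Nop10 in luminal progenitors, and 32 of 33 dark grey points lie below 0.

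In KO ML cells, markers of other populations moved with the module. The summed level of 10 basal markers was 19.5 to 26.3 CPM in WT ML, 784 to 987 in KO ML and 14760 to 19336 in KO basal cells, and that of 7 luminal progenitor markers was 142 to 188 CPM in WT ML and 453 to 1179 in KO ML. The basal markers rose unevenly. Mean CPM in WT ML, KO ML and KO basal cells was 2.64, 157 and 1621 for Krt5 and 3.36, 253.5 and 2425 for Krt17. For Acta2 it was 4.07, 26.6 and 4551, and for Cnn1 1.09, 1.79 and 518.7. The 9 mature luminal markers summed to 7465 to 9880 CPM in WT ML and 1662 to 4852 in KO ML. The KO ML library of mouse 1, the highest in 23 of 33 members, had the lowest mature luminal sum (1662 CPM, beside 4567 and 4852). Its progenitor sum was the highest (1179 CPM, beside 453 and 638). Its basal sum, 845 CPM, lay between those of KO mice 2 and 3. No marker of the 3 lists was at 0 in a KO ML library, and 1 basal marker was at 0 in a WT ML library. Of 25 cell division genes, 19 rose and 0 fell in KO ML, 17 rose in KO LP and 17 in KO basal cells, and Mki67 went from 7.75 to 18.5 CPM in WT ML to 143 to 244 in KO ML. Of 19 immediate early genes, 6 rose and 0 fell in KO ML. The part of any of these in the rise of Myc, Rrs1, Gar1 and Nolc1 was not tested. Immune markers summed to 3.48 to 4.5 CPM in WT ML and 7.92 to 55.4 in KO ML, with Ptprc, which defines leukocytes, at a mean of 0.113 CPM in WT ML and 0.269 in KO ML.

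In basal cells no member passed between genotypes (2.96% of all genes rose and 0.188% fell, 3.15% in all), and 0 of 33 had an unadjusted p under 0.05, beside 1912 of 16466 genes. The values were small and mostly of one sign: 32 of 33 were negative, with a median of -0.25 beside -0.02 over all genes. The sign rested on single mice: without WT mouse 1 the median was 0.10 and 13 values were negative, and without KO mouse 3 it was -0.07 with 22 negative. Myc alone of 33 had no overlap, its KO libraries all lower (6.82% of all genes had this), at 524, 678 and 565 CPM in WT and 494, 374 and 470.0 in KO (-0.40, SE 0.35, adjusted p = 0.79). Mybbp1a had the most negative value, -0.56 (SE 0.27), at 773, 525 and 442 CPM in WT and 492, 453 and 238 in KO. Mice differed widely within each genotype. WT mouse 1 was the highest WT basal library in 29 of 33 members and WT mouse 3 the lowest in 28, while KO mouse 3 was the lowest KO basal library in 30. At 12.08 M and 14.15 M counts, the basal libraries of the number 3 mice were also the shallowest of their groups.

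In LP the members split. Only Nop10 passed, and it rose (8.28% of all genes rose and 6.63% fell). It stood at 13.1, 11.3 and 15.2 CPM in WT LP and at 20.3, 22.2 and 33.5 in KO LP, with no overlap (0.93, SE 0.27, adjusted p = 0.026). KO mouse 3 was the highest, and without it the value was 0.68 (adjusted p = 0.14). The call was also lost without WT mouse 1 or 2 and in a fit of the 2 LP groups alone. The KO LP library of mouse 3 stood apart in other genes too: its 79 cytosolic ribosomal protein genes summed to 27237 CPM, beside 15309 and 14824 in KO mice 1 and 2 and 17345 to 18518 in WT LP. Immune markers summed to 139, 27.0 and 217.5 CPM in KO LP of mice 1, 2 and 3 and to 6.67 to 8.95 in WT LP, and mature luminal markers to 214 to 485 in KO LP and 648 to 956 in WT LP. Their part in the Nop10 value was not tested. The median over members was 0.09, with 18 positive and 15 negative values; without KO mouse 2 it was -0.02 and without WT mouse 2 -0.01. In 7 members all KO LP libraries lay above WT (17.7% of all genes) and in 4 below (13.4%). Polr1c stood at 54.9, 48.2 and 64.8 CPM in WT LP and 80.6, 72.4 and 93.2 in KO LP (0.55, adjusted p = 0.11), and Gar1 at 39.8, 38.1 and 49.3 and at 55.6, 73.0 and 74.8 (0.67, adjusted p = 0.095). All 4 abundant nucleolar proteins had negative values: Npm1 stood at 363, 356 and 345 CPM in WT LP and 210.3, 280.4 and 257 in KO LP (-0.51), and Mybbp1a at 290.2, 256 and 291 and at 171, 222 and 152 (-0.62). Neither passed. Myc was 631, 455 and 248 CPM in WT LP and 429, 319.9 and 456 in KO LP, with overlap (-0.15, SE 0.35, adjusted p = 0.82), while 6 of 19 immediate early genes fell there and 0 rose.

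The difference of the genotype effects was tested directly. The change in ML exceeded that in basal cells for all 33 members by sign, with a median log2 difference of 0.77 beside 0.05 over all genes; 3 passed (4.5% of all genes passed upward, 1.03% downward, 5.53% in all). Without WT mouse 1 the median was 0.41 and 29 values were positive. The 3 were Myc, Rrs1 and Gar1, with 1.95 (SE 0.50, adjusted p = 0.022), 1.5 (SE 0.40, adjusted p = 0.027) and 1.39 (SE 0.38, adjusted p = 0.036). The same quantity reads as a shorter distance between the populations: the log2 fold change of ML against basal cells was -3.07 in WT and -1.11 in KO for Myc, -3.11 and -1.61 for Rrs1, and -1.83 and -0.45 for Gar1. In 32 of 33 members, Nop10 excepted, the ML value lay nearer to basal cells in KO than in WT. All 3 calls were lost without KO mouse 1 or without WT mouse 3, and only that of Myc remained without KO mouse 2 or without WT mouse 1. Gar1 was also lost without KO mouse 3 and in a fit of the 4 groups alone, and Myc without WT mouse 2.

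**Figure D5:**
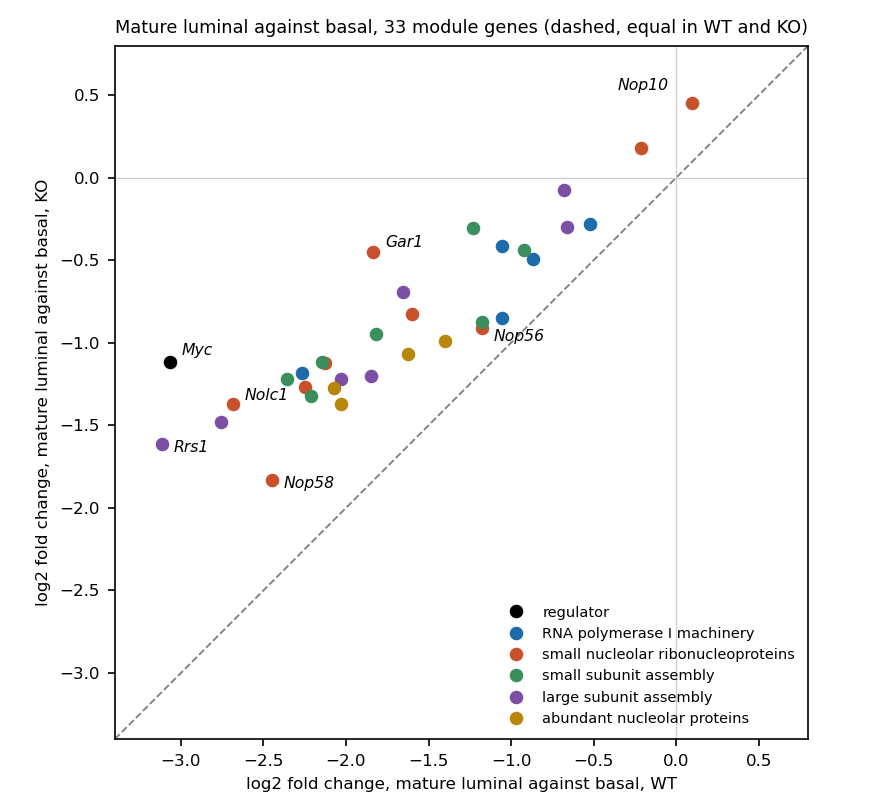
Log2 fold change of mature luminal against basal cells in WT (x axis) and in KO (y axis) for the 33 genes, coloured by role; the dashed line marks equal values. All points lie above the line, farthest for Myc, at -3.07 in WT and -1.11 in KO, and the difference passed the test for Myc, Rrs1 and Gar1.

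Between LP and ML the genotype effects differed for Myc alone in the fit used above, at -1.70 (SE 0.50, edgeR adjusted p = 0.047). Over all genes 1.22% passed upward and 5.15% downward. Myc lay 2.66 higher in LP than in ML in WT and 0.96 higher in KO. The call was lost in each of the 6 fits that left out a mouse (adjusted p = 0.053 to 0.22), in a fit of the 4 groups alone (0.098) and with edgeR's older deviance (0.052). Beside Myc, Rrs1 passed by edgeR with RLE scaling, with upper quartile scaling and on thinned libraries (adjusted p = 0.039 to 0.049), and by DESeq2 (0.023). Rrs1 passed without Myc in the fit of the 4 groups alone (-1.31, edgeR adjusted p = 0.045). With the mouse as a block, Rrs1 (-1.29, adjusted p = 0.014), Gnl3 (-1.01, adjusted p = 0.034) and Ddx21 (-1.10, adjusted p = 0.026) passed as well, and Myc had -1.60 (adjusted p = 0.012). Between LP and basal cells no member passed by edgeR (0.389% of all genes passed upward and 0.704% downward, 1.09% in all), 3 of 33 had an unadjusted p under 0.05 beside 2305 of 16466 genes, and DESeq2 called 1, Nop10 (1.23, adjusted p = 0.039).

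Few other genes of the pathway passed between genotypes, and in ML most of their values were positive. The median log2 fold change in KO ML was 0.35 over 51 other large subunit genes (41 positive), 0.20 over 45 other small subunit genes (32 positive) and 0.20 over 30 other Myc target genes (23 positive), beside 0.46 over the module. The change in ML exceeded that in basal cells by a median of 0.52 for the large subunit genes (44 positive) and 0.43 for the small subunit genes (41 positive), beside 0.77 for the module. In KO ML, 1 of 51 other large subunit genes rose, Ppan, from 22.4 ± 5.6 to 47.5 ± 8.95 CPM (1.08, SE 0.33, adjusted p = 0.031), and 0 of 45 other small subunit genes and 0 of 11 other RNA polymerase I genes passed. In the exosome list Exosc8 rose, from 11.9 ± 0.686 to 22.6 ± 8.23 CPM (0.91, adjusted p = 0.037). Of 79 ribosomal protein genes 3 rose, and of 30 other Myc target genes 0 passed in ML. In the Myc network 3 of 12 rose, 1 of them at a mean level under 2 CPM. Mxd3, a Max-binding repressor of Myc sites expressed in dividing cells, went from 0.338 ± 0.257 to 3.22 ± 1.15 CPM in ML (3.58, SE 0.67, adjusted p = 6.5e-04) and from 1.4 ± 0.710 to 9.66 ± 2.49 CPM in LP (2.86, SE 0.49, adjusted p = 6.5e-04). Mxd1, another such repressor, rose in ML from 29.7 ± 5.20 to 76.2 ± 31.5 CPM (1.35, SE 0.39, adjusted p = 0.022). In KO LP Tsr1, a small subunit assembly factor, fell from 179 ± 39.98 to 79.6 ± 26.4 CPM (-1.17, SE 0.29, adjusted p = 0.013), and Mga, a Max partner, from 272 ± 35.6 to 120 ± 61.3 CPM (-1.18, SE 0.29, adjusted p = 0.011).

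The libraries came from a kit that does not keep strand. Exons of 10 members share 0.262% to 5.33% of their bases with a gene on the other strand (Bop1, Dkc1, Gnl3, Mybbp1a, Nhp2, Nop14, Nop56, Pes1, Polr1a and Wdr3), and reads there cannot be assigned to either gene. The genes Myc, Rrs1, Gar1, Nolc1 and Nop10 had no such overlap.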

How the data were processed

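The data were read counts per gene for 18 RNA-seq libraries. The counts were made by the authors with featureCounts on mm10, per the submitters' processing notes. No aligner, annotation or strand option is named in the labels. The libraries came from a TruSeq RNA v2 kit, per the labels' protocols. Gene identifiers were paired with RefSeq symbols for 25275 of 27179 genes.

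Counts were fitted with edgeR 4.0.16 (R 4.3.3, limma 3.58.1) by its quasi-likelihood test, with 1 mean for each of 6 groups over all 18 libraries, filterByExpr, TMM scaling and robust estimation. P-values were adjusted by Benjamini-Hochberg over 16466 genes, with a threshold of 0.05. The biological coefficient of variation was 33.3%. CPM used TMM-scaled library sizes, and RPKM also the deposited gene lengths. Differences of genotype effects were contrasts of the same fit. The fit was tested on simulated data.

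Replicate numbers mark a mouse within a genotype, per the labels. Libraries of 1 mouse deviated together in 17 of 18 pairs at a correlation over 0.1 (0.0949 to 0.334), so a second fit added the mouse as a blocking term. Other alternatives were RLE and upper quartile scaling, no filter, DESeq2 1.42.0, libraries thinned to 5.973 M counts, the compared groups alone, each mouse left out, and the number as a block between genotypes. A fit with edgeR's older deviance was added after seeing the data.

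The members and lists were chosen with earlier results of these data known. All 33 members are named; of each other list, the genes named are among the 3 of lowest p in a comparison with a mean of at least 2 CPM.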

Additional observations from a re-analysis of the deposited data

Results flagged for a closer look

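The genotype effect differed between populations for 3 members by a test of the difference itself. For Myc the KO against WT log2 fold change was higher in mature luminal than in basal cells by 1.95 (SE 0.502, edgeR adjusted p = 0.0221). For Rrs1 the difference was 1.5 (SE 0.397, adjusted p = 0.0267) and for Gar1 1.39 (SE 0.385, adjusted p = 0.0363). For Myc the effect in luminal progenitors against that in mature luminal cells was -1.7 (SE 0.501, adjusted p = 0.0473). Summed basal and progenitor markers, cell division genes and immediate early genes also differed between these libraries, and their part in the 4 differences was not tested.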

How the results depend on the processing

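No called member changed sign in the settings run. The median over members for KO against WT did: in basal cells it was -0.25 and, without WT mouse 1, 0.10; in LP it was 0.09 and, without KO mouse 2 or WT mouse 2, -0.02 and -0.01. Members called in WT LP against basal cells numbered 18, and 10 in a fit of those groups alone; with a mouse left out the range was 9 to 18. For WT ML against basal cells the range with a mouse left out was 25 to 30 around 30, and for WT LP against ML 12 to 20 around 19. In KO, LP against basal cells gave 16 (2 to 16 with a mouse left out), ML against basal cells 20 (11 to 23), and LP against ML 2 (0 to 6), the last with 0 on thinned libraries and 0 in a fit of the groups alone. Between genotypes no member passed in basal cells in any setting. LP gave 1 (0 to 1 with a mouse left out; 0 in a fit of the groups alone), and ML 4 (2 to 7; 9 in a fit of the groups alone; 6 by DESeq2). The difference of genotype effects between LP and basal cells gave 0, and 1 by DESeq2. That between ML and basal cells gave 3 (0 to 2 with a mouse left out; 2 in a fit of the groups alone). That between LP and ML gave 1 (0 with each mouse left out), 2 with RLE scaling, 2 with upper quartile scaling, 2 by DESeq2, 2 on thinned libraries and 0 with the older deviance. The cause was not tested, beyond fewer samples in the smaller fits.

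With the mouse as a replicate block, KO LP against KO ML gave 7 calls and the difference between LP and ML 4. The difference between ML and basal cells gave 4, and the WT calls of Pes1 and Bop1 were lost. In WT that fit gained Ubtf in ML against basal cells, Gnl3 in LP against basal cells and Wdr3 in LP against ML. Numbers mark a mouse within a genotype and are not stated to pair mice of different genotypes. Correlations of same-numbered libraries ran from -0.0977 to 0.258. Some, such as 0.227 and 0.258 for numbers 1 and 3 in basal cells, lay within the range for libraries of 1 mouse (0.0949 to 0.334). The number as a replicate block gave 2 calls for LP, 7 for ML and 0 for basal cells. Upper quartile scaling moved the median of all genes by 0.13 for WT ML and 0.11 for KO ML against basal cells.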
